A study of Mus musculus with 400 samples.

Results

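Receptor genes for extracellular ATP, other nucleotides and acid were described in single sensory neurons, 10 in all: P2rx2, P2rx3, P2rx4 and P2rx5, P2ry1, P2ry2 and P2ry14, and Asic1, Asic2 and Asic3. They were taken by name, 10 of the 24754 genes in the tables after the ribosomal RNA gene Rn45s and the entries that carried dates were set aside, and no measured value chose them. The cells came from dissociated cervical dorsal root ganglia of 6 mice aged 6 to 12 weeks, and each cell positive for the red protein tdTomato was sorted singly and sequenced as its own library. All mice were naive and carried the Nav1.8-Cre driver with the R26CAG-floxStop-tdTomato reporter (strain label Nav1.8-Cre.Ai14). The mice are called Blue and Red (run 1), Control (run 2), Control1 and Control2 (run 3) and Control6 (run 4). All cells carry the Cre driver and the reporter, and the reporter stays on once the Cre has acted, so the marked population is a lineage that may include cells no longer expressing the Nav1.8 gene Scn10a. Of 394 cells with a column in the tables, 371 with at least 500 detected genes were kept, and their values were scaled to CPM, counts per 1000000 counts of a cell.

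ATP released from stressed or damaged cells opens P2X channels, cation channels built from several subunits, and P2X3 and P2X2 subunits are the classical ATP receptors of pain-sensing neurons. P2Y receptors are G protein-coupled receptors for nucleotides, and ectoenzymes on the cell surface break ATP down to adenosine. Acid-sensing ion channels (ASICs) are proton-gated sodium channels assembled from ASIC subunits, and in sensory neurons they have been linked to the pain of acidic, inflamed or poorly perfused tissue.

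The cells were grouped into 6 gates by genes other than these 10. The Mrgprd gate (at least 200 CPM of this receptor gene of non-peptidergic nociceptors) held 30.5% of the kept cells, and the Mrgpra3 gate (at least 50 CPM of an itch receptor gene) held 47 cells. The Sst/Nppb gate (at least 100 CPM of either itch-related neuropeptide gene) held 46 cells, and the Th gate (at least 100 CPM of tyrosine hydroxylase, the mark of low-threshold C-fibre touch neurons) held 39. The Calca/Tac1 gate (at least 2000 CPM of Calca and 1000 CPM of Tac1, genes of peptidergic nociceptors) held 86 cells and the Nefh gate (at least 500 CPM of the heavy neurofilament gene of myelinated neurons) held 26. No gate took 28 cells, and 14 cells passed more than 1 gate. Of the 26 Nefh-gate cells 9 also passed another gate, 3 each the Mrgprd, Th and Calca/Tac1 gates. The other gates shared 1 (Sst/Nppb) to 5 cells each. Levels of a gate and its comparison with the other cells keep these shared cells. The 5 general neuronal markers Snap25, Uchl1, Tubb3, Rbfox3 and Elavl4 were present in every gate, with sums of 5588 to 7635 CPM, and Scn10a had a count in 364 of 371 cells. Of the lymphocyte markers, Cd3e was at 0 in all kept cells, Cd79a had a count in 2.43% of them (10.3% in the Th gate) and Ptprc in 0.539%.

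Depth and the level of glial markers differed between the gates. The median depth was 46207 recovered counts per cell in the Mrgprd gate, 38475 in the Mrgpra3 gate, 16866 in the Sst/Nppb gate, 32492 in the Th gate, 19827 in the Calca/Tac1 gate and 67371 in the Nefh gate. Shares of cells with a count are therefore also plotted for all 10 genes with every cell thinned to 5000 counts, and some are given in the text. The summed level of 11 satellite glial and Schwann cell markers had a median of 3674 CPM per cell in the Nefh gate (range 246 to 26225) against 835 CPM in the other cells (range 0 to 8178), with 10 of the 11 markers higher in the gate. In the Th gate the median was 2171 CPM (range 376 to 6707) against 804 CPM elsewhere (range 0 to 26225), with 4 of 11 markers higher, chiefly Pmp22 and Mbp. The 6 satellite glial markers alone had a median of 0 CPM in the Th gate and 2680 CPM in the Nefh gate. Pmp22 alone had a median of 1660 CPM in the Th gate and a count in 90.6% of all kept cells. The sum and the cuts made on it thus also depend on Pmp22, whose source, glia or neurons, was not tested. The Sst/Nppb gate had the lowest median, 159 CPM (range 0 to 4341) against 950 CPM in the other cells (range 0 to 26225), with 0 of 11 higher and Gja1 at 0. The mouse Control gave 17 of the 26 Nefh-gate cells, and Blue and Red gave 32 of the 39 Th-gate cells. Means over mice weigh each mouse equally, so in the Nefh gate Control2 and Control6, with 3 cells each, count as much as Control. In the Th gate the means over mice come from Blue and Red alone. The medians were 830 CPM in the Mrgprd gate (958 in its other cells), 927 in the Mrgpra3 gate (851) and 631 in the Calca/Tac1 gate (927), with 4, 3 and 5 of the 11 markers higher. Results without the 25% of cells richest in glial markers, an alternative added after the data were seen, are given where they end a call.

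Each gate was compared with the other cells of the same mice, with 1 mean per mouse and arm from mice with at least 3 cells in both arms, using limma on log2(mean CPM + 5) with mouse as a block and Benjamini-Hochberg adjustment over 12175 genes. Of the 10 genes, 9 passed the filter of a mean of 2 CPM and were tested, and P2ry14 did not. In the Mrgprd gate (6 mice) 7 of the 9 were called at an adjusted p under 0.05, where 20.8% of all genes tested were called. Of these 2 were higher, beside 7.68% of all genes, and 5 lower, beside 13.1%. In the Mrgpra3 gate (3 mice) 4 were called (2.04% of all genes), 1 higher (0.575%) and 3 lower (1.46%), and in the Sst/Nppb gate (5 mice) 5 were called (12.9%), 1 higher (2.53%) and 4 lower (10.3%). The Th gate (2 mice) had 5 called (18.8%), 2 higher (8.4%) and 3 lower (10.4%). The Calca/Tac1 gate (6 mice) had 4 called (10.3%), 1 higher (4.02%) and 3 lower (6.25%), and the Nefh gate (3 mice) had 2 called (6.28%), 1 higher (3.02%) and 1 lower (3.25%). The median difference over all genes tested lay slightly below 0 in every gate, from −0.03 in the Th gate to −0.30 in the Sst/Nppb gate. The gates share cells in their comparison arms, so the 6 comparisons are not independent of each other. The other cells of a gate include those of the other gates, so each difference also depends on the levels in those gates. The plots of levels and of differences show the profile of each gate, with P2rx4 as the one tested gene that was called in none. Between the Calca/Tac1 and Nefh gates, compared directly below with Nefh cells of Control alone, no receptor gene was called.

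**Figure D1:**
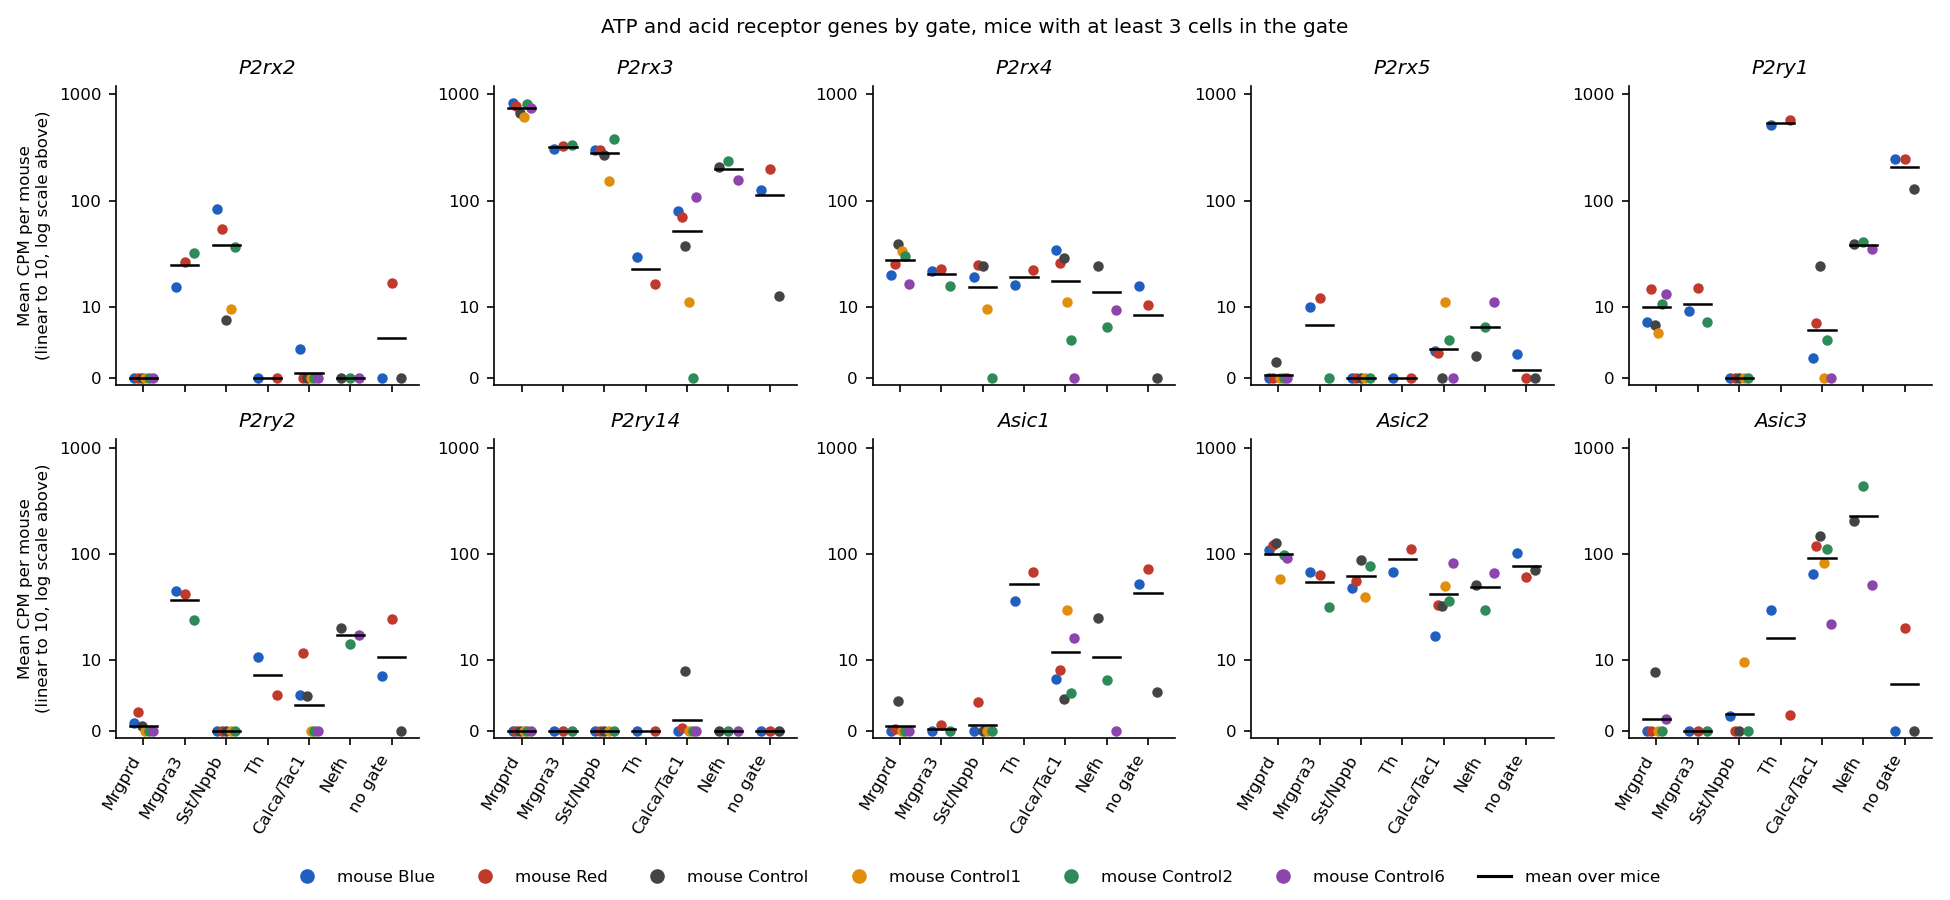
Mean CPM of each receptor gene per mouse (points, mice with at least 3 cells in the gate) and mean over mice (black line) in the 6 gates and in cells of no gate; the vertical axis is linear up to 10 CPM and logarithmic above. P2rx3 is at 619 to 829 CPM in the 6 mice of the Mrgprd gate, P2ry1 at 510 and 573 CPM in the Th gate, and Asic3 is near 0 in the Mrgprd and Mrgpra3 gates.

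**Figure D2:**
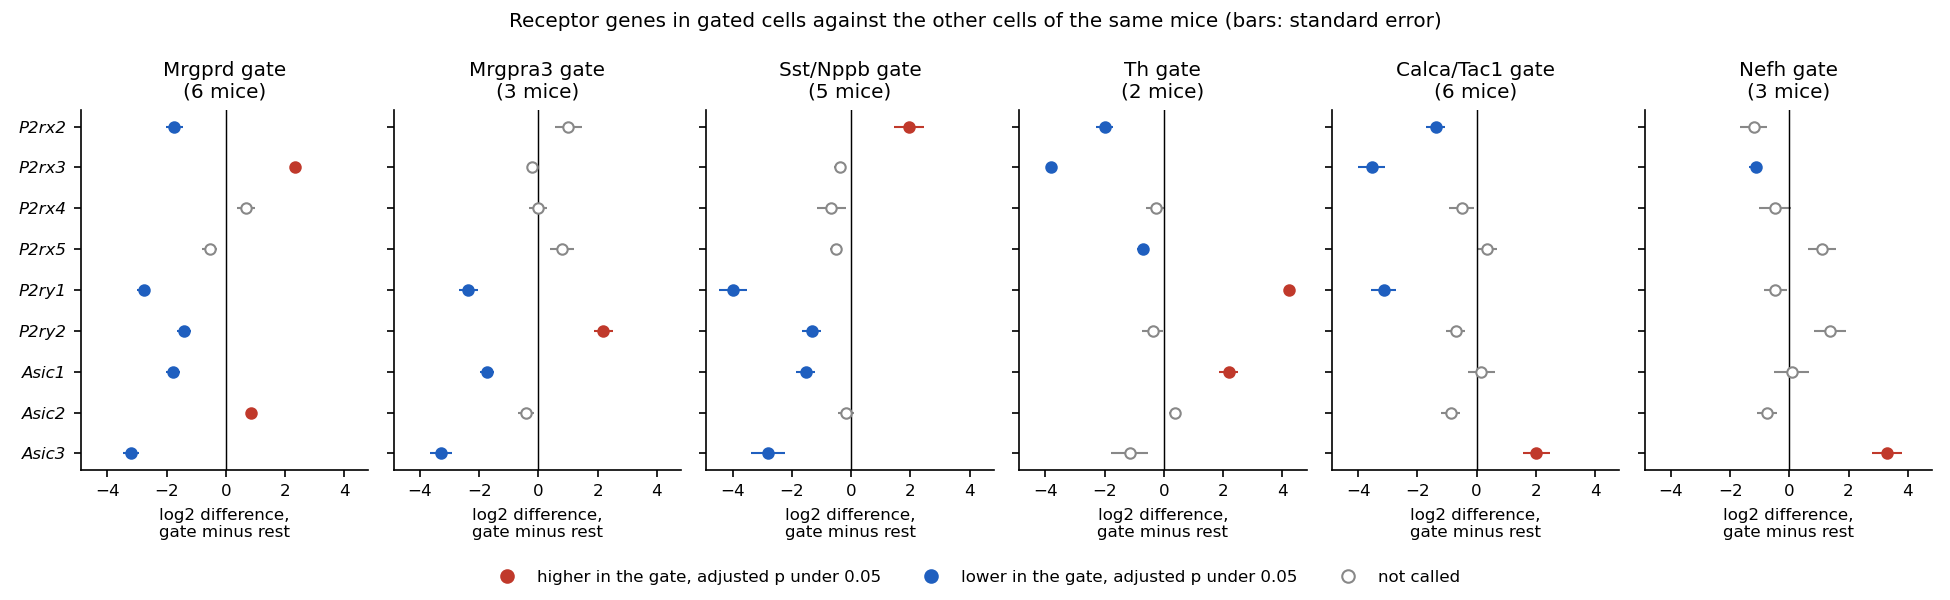
Difference in log2(mean CPM + 5) between the cells of a gate and the other cells of the same mice for the 9 tested receptor genes; bars are standard errors, and filled points are genes with a limma adjusted p under 0.05. The strongest positive differences are those of P2ry1 in the Th gate (4.24), Asic3 in the Nefh gate (3.31) and P2rx3 in the Mrgprd gate (2.33).

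Among the P2X genes, P2rx3, which encodes the main ATP-gated subunit of small-diameter sensory neurons, set the gates apart most widely. In the Mrgprd gate Blue averaged 829 CPM, Red 770, Control 663, Control1 619, Control2 815 and Control6 747, while the other cells of the same mice lay between 67.8 and 223 CPM with a median of 162 CPM. The groups did not overlap and every mouse was higher in the gate, 740 ± 83.9 CPM against 152 ± 52.2 CPM (SD, n = 6), and the difference of 2.33 (SE 0.13) on the log2 scale was called (limma, adjusted p = 1.35e-08). A count was found in all but 2 Mrgprd-gate cells (98.2% of them, exact Clopper-Pearson 95% interval 93.8% to 99.8%), and 96.4% of cells kept one after thinning. The gene lies on chromosome 2 (84998583 to 85037462, minus strand, GRCm38), and its exons overlap those of Ssrp1 on the opposite strand; no source used here says whether counting used strand, so reads of the shared stretch cannot be assigned.

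Against the other cells of the same mice, which include the Mrgprd-gate cells, P2rx3 was lower in 3 other gates. In the Th gate it averaged 29.5 CPM in Blue and 16.3 CPM in Red, against 378 and 369 CPM in the other cells of these mice, a difference of −3.80 (SE 0.18, limma adjusted p = 1.41e-05). In the Calca/Tac1 gate the 6 mice ranged from 0 CPM in Control2 to 109 CPM in Control6 with a mean of 51.5 ± 42.4 CPM, against a range of 341 to 550 CPM elsewhere, and all 6 were lower in the gate without overlap (−3.54, SE 0.46, limma adjusted p = 0.000112). The Nefh gate held an intermediate level, 207 CPM in Control, 235 in Control2 and 158 in Control6, against 374, 488 and 461 CPM in the other cells of these mice (−1.13, SE 0.22, limma adjusted p = 0.00215). In the Mrgpra3 gate (323 ± 12.7 CPM, n = 3) and the Sst/Nppb gate (281 ± 83.1 CPM, n = 5) the gene overlapped with the other cells (379 ± 82 and 359 ± 60.3 CPM) and was not called. Between gates, compared on cells that pass 1 gate only with adjustment over all genes and 15 pairs, 40 differences of receptor genes were called, where 6.33% of all tests were called. For P2rx3 the Mrgprd, Mrgpra3 and Sst/Nppb gates were each above both the Th and the Calca/Tac1 gate, whereas no neighbours in the order Mrgprd, Mrgpra3, Sst/Nppb, Nefh, Calca/Tac1, Th were called. Over all cells of a gate, the mouse ranges of 2 of these neighbouring pairs still did not overlap. The means were 740 CPM for Mrgprd against 323 for Mrgpra3, and 200 CPM for Nefh against 51.5 for Calca/Tac1. The fit between gates used fewer cells and mice. There Mrgprd over Mrgpra3 was 1.74 (SE 0.66, limma adjusted p = 0.167), with Mrgpra3 cells from Blue and Red. Nefh over Calca/Tac1 was 1.97 (SE 0.90), with Nefh cells from Control alone. In that fit the Nefh gate was called against no other gate for P2rx3.

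The share of all genes called differed between the pairs of gates. It was 3.31% for Mrgprd against Mrgpra3, 11.3% against Sst/Nppb, 6.44% against Th, 13.2% against Calca/Tac1 and 4.72% against Nefh. For Mrgpra3 it was 4.7% against Sst/Nppb, 6.18% against Th, 4.29% against Calca/Tac1 and 2.59% against Nefh, and for Sst/Nppb 9.77% against Th, 10.6% against Calca/Tac1 and 6.01% against Nefh. Th cells differed in 7.17% of genes from Calca/Tac1 and in 2.56% from Nefh cells, which differed in 2.06% from Calca/Tac1 cells. Nefh cells came from Control alone in this comparison, and Th and Mrgpra3 cells from Blue and Red.

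P2rx2 encodes the subunit that joins P2X3 in mixed ATP-gated channels, and it showed another pattern. No cell of the Mrgprd gate had a count, which allows up to 2.65% of cells with a count and sets no limit on cells with a low level, although 98.2% of these cells had P2rx3. The other cells lay between 1.78 and 20.6 CPM in the 6 mice with a median of 15.1 CPM, and the difference was called (−1.73, SE 0.28, limma adjusted p = 0.000359); with the gate at 0 its size depends on the pseudocount and is no bound. In the Sst/Nppb gate Blue averaged 84.1 CPM, Red 53.8, Control 8.12, Control1 9.69 and Control2 37.1, against 3.94, 5.48, 0.532, 4.56 and 4.88 CPM in the other cells of these mice, listed in the same order. The gate was higher in 5 of 5 mice and the groups did not overlap, but Control and Control1 lay far below the others. This difference of 1.95 (SE 0.51, limma adjusted p = 0.0246) rested on few cells outside run 1 and on single mice. It was 1.61 without Blue (adjusted p = 0.126), 1.82 without Red (0.102) and 1.92 without Control2 (0.0618); within run 1 it was 2.90, and within runs 2 to 4 it was 1.32 (limma adjusted p = 0.344). Without the cells richest in glial markers it was 1.92 (limma adjusted p = 0.0885).

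In the Mrgpra3 gate P2rx2 stood at 15.3 CPM in Blue, 26.4 in Red and 32.5 in Control2, against 15.4, 8.49 and 5.56 CPM in the other cells of these mice, higher in 2 of 3, and was not called (1.01, SE 0.46, limma adjusted p = 0.334). The comparison arm there contains the Sst/Nppb cells; set against single gates, the Mrgpra3 gate was above the Mrgprd gate (limma adjusted p = 0.046) and the Th gate (0.0226). The Sst/Nppb gate was higher by 0.74 with overlapping mice and not called (SE 0.55, limma adjusted p = 0.635). In the Th gate P2rx2 was at 0 in both mice against 15.2 ± 3.46 CPM elsewhere (SD, n = 2), and in the Calca/Tac1 gate 5 of 6 mice were at 0 and Blue was at 4.09 CPM, against 10.7 ± 6.45 CPM elsewhere. Both were called lower (limma adjusted p = 0.0021 and 0.00964). The Th call was lost with no filter, with halved thresholds, where the difference was −0.38, and with 1 cell per arm, where the single Th-gate cell of Control1 had 34.3 CPM. The Calca/Tac1 call was lost without Red (−1.25, adjusted p = 0.0570), within runs 2 to 4 (−1.21, adjusted p = 0.155) and with halved or doubled thresholds. The gene lies on chromosome 5 (110339812 to 110343212, minus strand).

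Cells with P2rx2 nearly always held P2rx3 as well. Of 26 Sst/Nppb-gate cells with a count of P2rx2, all 26 had P2rx3 (exact 95% interval 86.8% to 100%), and 19 of the 20 cells without P2rx2 had it too. In the Mrgpra3 gate 21 of 23 P2rx2-positive cells had P2rx3 (91.3%, interval 72% to 98.9%), beside 20 of the 24 P2rx2-negative cells (83.3%). Over all kept cells 52 of 54 cells with P2rx2 had P2rx3, whereas 52 of 285 cells with P2rx3 had P2rx2 (18.2%, interval 13.9% to 23.2%). P2rx2 was thus detected in 48.9% of Mrgpra3-gate cells and 56.5% of Sst/Nppb-gate cells, or 13% and 26.7% after thinning, and in 1 of 39 Th-gate and 2 of 86 Calca/Tac1-gate cells. The scatter of single cells shows the Mrgprd-gate cells in a column at 0 CPM of P2rx2.

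**Figure D3:**
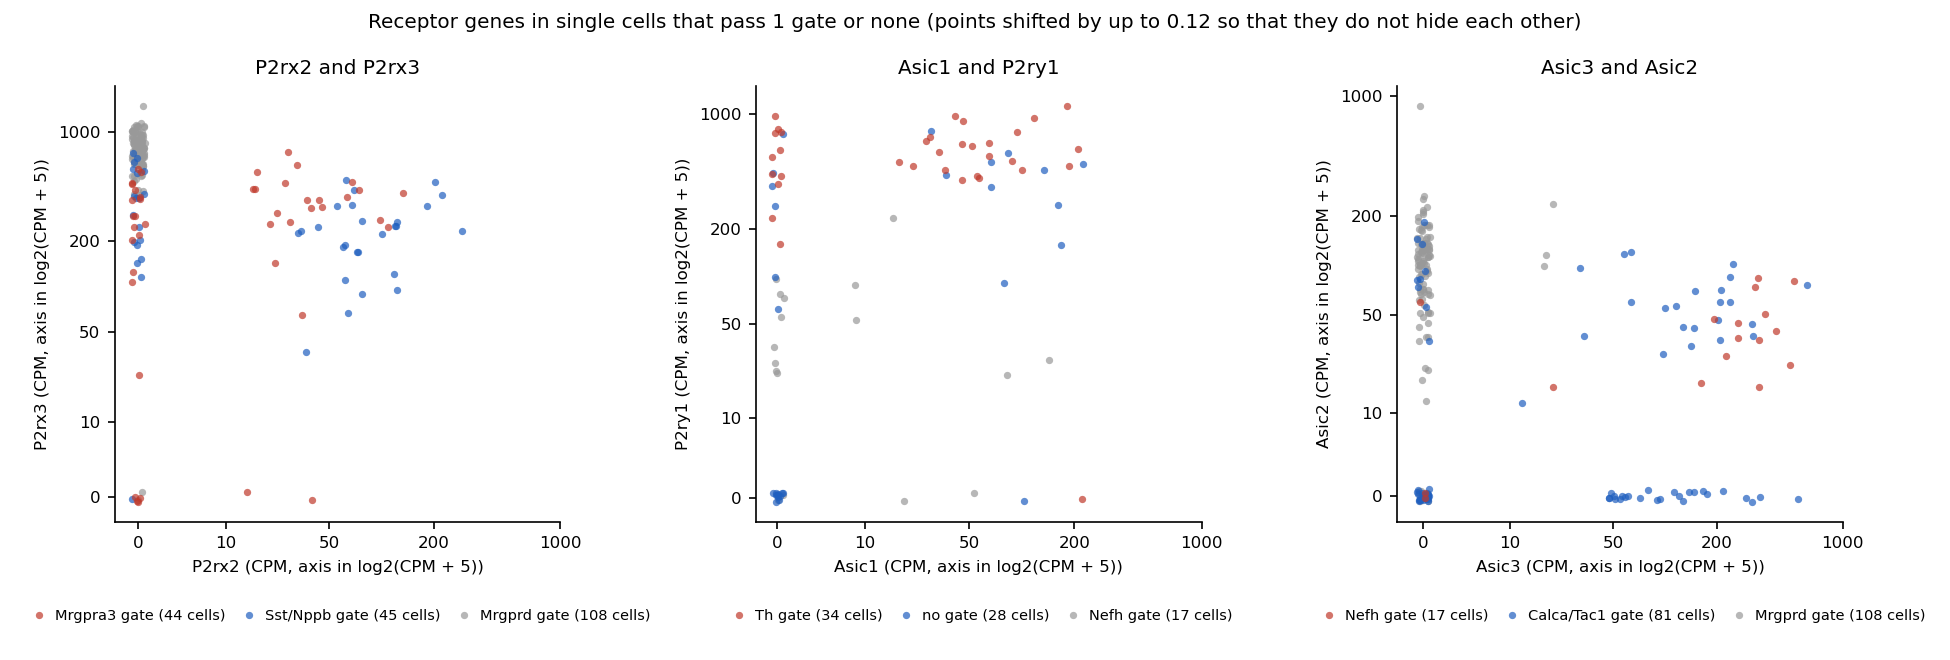
CPM of pairs of receptor genes in single cells that pass 1 gate, or none, on axes in log2(CPM + 5); points are shifted by up to 0.12 units so that they do not hide each other. P2rx2 spreads over cells of the Mrgpra3 and Sst/Nppb gates and is at 0 in the Mrgprd gate, P2ry1 is high in Th-gate cells with and without Asic1, and Asic3 is found in Nefh-gate and Calca/Tac1-gate cells with and without Asic2.

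P2rx4, a P2X gene known for its role in microglia as well as neurons, was the most even of the receptor genes tested. Its means were 27.5 ± 8.61 CPM in the Mrgprd gate, 20.2 ± 3.97 in the Mrgpra3 gate, 15.5 ± 10.5 in the Sst/Nppb gate, 19.3 ± 4.46 in the Th gate, 17.7 ± 14 in the Calca/Tac1 gate and 13.8 ± 9.35 in the Nefh gate (SD over 6, 3, 5, 2, 6 and 3 mice). No gate was called against the other cells, and none of the 15 pairs of gates was called; the largest difference against the rest was 0.68 (SE 0.29, limma adjusted p = 0.118) in the Mrgprd gate, where 5 of 6 mice were higher. Macrophage markers summed to 3.28 to 13 CPM in the 6 gates. Csf1r and C1qa were at 0 outside the Nefh gate, and Cd68 was at 0 in the Mrgpra3, Sst/Nppb and Calca/Tac1 gates. Cx3cr1 had a count in cells of every gate, from 1.16% (Calca/Tac1) to 30.8% (Th), and so had Aif1, from 2.17% (Sst/Nppb) to 19.2% (Nefh). Between 34.8% (Sst/Nppb) and 73.1% (Nefh) of cells had a count, and after thinning 5.13% to 12%, so that the spread of shares followed depth. P2rx4 lies on chromosome 5 (122707544 to 122729738, plus strand).

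P2rx5, another P2X subunit gene, was weak and restricted. It had a count in 14 of 47 Mrgpra3-gate cells (29.8%, exact 95% interval 17.3% to 44.9%), 6 of 26 Nefh-gate cells and 9 of 86 Calca/Tac1-gate cells, against 1 cell of the Mrgprd gate and none in the Sst/Nppb gate (0 of 46) and the Th gate (0 of 39). After thinning 4.35% of Mrgpra3-gate cells kept one, beside 1.16% in the Calca/Tac1 gate and 0% in the Nefh gate. At this low level a cell without a count may still express the gene, and counts of 0 set no limit on that. In the Mrgpra3 gate its means were 10.1 CPM in Blue, 12.2 CPM in Red and 0 in Control2, against 1.26 ± 0.192 CPM in the other cells (SD, n = 3), which was not called (0.80, SE 0.40, limma adjusted p = 0.368). Compared gate by gate, Mrgpra3 cells were above Mrgprd, Sst/Nppb and Th cells (log2 differences 1.61, 1.75 and 1.74 in favour of Mrgpra3, limma adjusted p = 0.0101, 0.00665 and 0.0132). The call of a lower level in the Th gate (−0.72, SE 0.20, limma adjusted p = 0.0405) compared 0 CPM with 3.22 ± 0.0725 CPM and was lost under 9 of 14 alternatives. Of the 14 Mrgpra3-gate cells with P2rx5, all 14 had P2rx3 and 12 had P2ry2, beside 27 and 20 of the 33 cells without it, at median depths of 45657 and 33518 counts. The gene lies on chromosome 11 (73160421 to 73172685, plus strand).

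P2ry1, the gene of the G protein-coupled ADP receptor P2Y1, marked the Th gate among the receptor genes described here. Its means were 510 CPM in Blue and 573 CPM in Red, against 25.8 and 22.2 CPM in the other cells of these mice, a difference of 4.24 (SE 0.14, limma adjusted p = 8.23e-06). The 4 mice with only 1 or 2 Th-gate cells, which did not enter the test, lay at 522 CPM (Control), 480 (Control1), 242 (Control2) and 521 (Control6). Control2 was the lowest. A count was present in 37 of 39 Th-gate cells (94.9%, exact 95% interval 82.7% to 99.4%) and 87.2% kept one after thinning. Among Th-gate cells the 20 with the higher sum of glial markers averaged 542 CPM and the 19 with the lower sum averaged 502 CPM. Without the 25% of all cells richest in glial markers the difference between the Th gate and the rest was 5.03 (limma adjusted p = 0.00355).

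All other gates lay below the Th gate. The other cells to which these gates were compared include the Th-gate cells. Between gates, no pair without the Th gate was called for P2ry1. The Nefh gate, with 39.4 CPM in Control, 40.6 in Control2 and 34.8 in Control6, came next but differed from the Th gate by 4.2 (SE 1.07, Th over Nefh, limma adjusted p = 0.0241; in that fit the Nefh gate had 1 mouse, assumed to vary like the others). P2ry1 averaged in the Mrgprd gate 10.0 ± 3.38 CPM against 99.3 ± 27 CPM elsewhere (SD, n = 6), and in the Calca/Tac1 gate 6.71 ± 9.18 CPM against 84.6 ± 32.7 CPM (SD, n = 6), neither with overlap and both called lower (−2.77 and −3.14, limma adjusted p = 3.88e-07 and 0.000191). The Sst/Nppb gate had no count in 46 cells, against 78.6 ± 27.3 CPM in the other cells (limma adjusted p = 0.00013). That allows up to 6.52% of cells with a count at this gate's low depth and sets no limit on cells with a low level. The Mrgpra3 gate, at 10.8 ± 3.82 CPM against 81.6 ± 36.7 CPM (n = 3), was called lower (−2.37, SE 0.32, limma adjusted p = 0.0413), but not without Blue (−2.11, adjusted p = 0.132) or Red (−2.33, 0.190). The gene lies on chromosome 3 (61002795 to 61008982, plus strand), where its exons overlap the predicted gene Gm37035 on the opposite strand.

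Cells of no gate held P2ry1 too. Their means were 246 CPM in Blue, 246 in Red and 130 in Control, with a count in 16 of 28 cells (57.1%, exact 95% interval 37.2% to 75.5%). These cells also carried 2 genes of the Th marker list, Fam19a4 at a mean of 216 CPM (438 CPM in the Th gate) and Slc17a8 at 80.2 CPM (164 CPM in the Th gate), while Th itself was at 10.1 CPM (813 CPM in the Th gate). Of the cells just inside the Th threshold (100 to 200 CPM), 4 in number, the mean of P2ry1 was 672 CPM, and of the 8 cells just outside it (50 to 100 CPM) it was 156 CPM with a median of 29.8 CPM.

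P2ry2, the gene of a receptor for ATP and UTP, was highest in the Mrgpra3 gate. Blue had 45.2 CPM, Red 42.1 and Control2 23.9, against 3.88, 6.43 and 2.12 CPM in the other cells of these mice, and 32 of 47 cells had a count (68.1%, exact 95% interval 52.9% to 80.9%). After thinning 19.6% of cells kept one. The difference of 2.19 (SE 0.33) passed narrowly (limma adjusted p = 0.0498). It was not called without Blue (2.03, adjusted p = 0.248), without Red (2.26, 0.245) or when Control1, which adds no cells to this test, was left out of the filter (2.19, 0.0507). Within run 1 alone the difference was 2.27, and without the cells richest in glial markers it was 2.47 (limma adjusted p = 0.0662); the 3 lower calls of the Mrgpra3 gate, and those of P2ry2, Asic1 and Asic3 in the Sst/Nppb gate, also ended without those cells (limma adjusted p = 0.0548 to 0.283). In the comparison of gates, Mrgpra3 cells were above Mrgprd, Sst/Nppb, Th and Calca/Tac1 cells, by 2.93, 3.11, 1.96 and 2.27 (limma adjusted p = 0.000393, 0.000282, 0.0247 and 0.00368).

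The Nefh gate was next for P2ry2, with 20.0 CPM in Control, 14.2 in Control2 and 17.4 in Control6 against 1.5, 3.59 and 6.08 CPM in the other cells; it was higher in 3 of 3 mice without overlap and not called (1.37, SE 0.54, limma adjusted p = 0.161). The Mrgpra3 mice lay above the Nefh mice without overlap, but the difference was not called (0.59, SE 0.71, limma adjusted p = 0.831, with Control as the one Nefh mouse of that fit). P2ry2 had no count in the 46 Sst/Nppb-gate cells and a count in 4.42% of Mrgprd-gate cells, at 0.769 ± 1.07 CPM against 10.8 ± 4.41 CPM elsewhere. Both gates were called lower (limma adjusted p = 0.0123 and 0.000711), the Sst/Nppb call being lost without Blue (−1.24, adjusted p = 0.0556), without Red (−1.20, 0.0596) and within runs 2 to 4 (−1.02, 0.192). Of the cells with P2rx2, 17 of 23 in the Mrgpra3 gate and 0 of 26 in the Sst/Nppb gate also had P2ry2, so the gates that share P2rx2 differed in this gene. P2ry2 lies on chromosome 7 (100996568 to 101012866, minus strand).

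P2ry14, the gene of a receptor for UDP-sugars, was detected in 2 of 371 cells (0.539%, exact 95% interval 0.0654% to 1.93%). Both were in the Calca/Tac1 gate, 1 of 38 cells of Red and 1 of 4 cells of Control, with 1 recovered count each, which is too few to compare gates. The gene lies on chromosome 3 (59113855 to 59153618, minus strand).

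**Figure D4:**
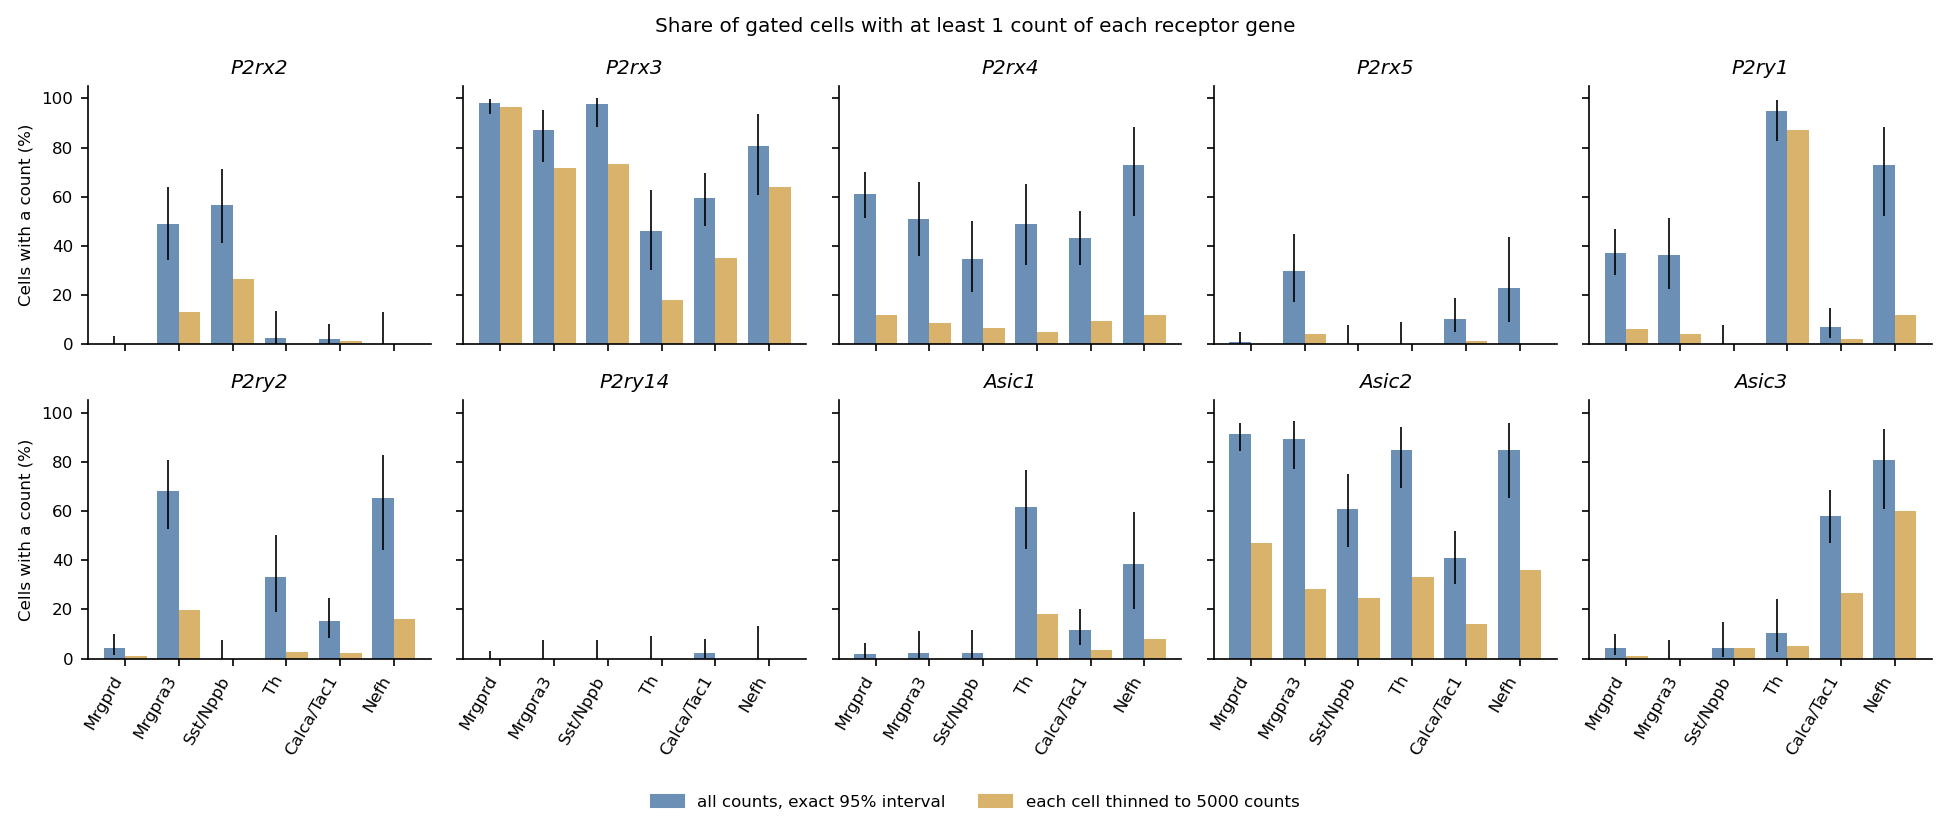
Share of cells with at least 1 count of each receptor gene in the 6 gates, from all counts (blue, exact Clopper-Pearson 95% intervals) and after thinning each cell to 5000 counts (yellow, 10 shallower cells left out). P2rx3 in the Mrgprd gate and P2ry1 in the Th gate keep nearly all of their share after thinning (96.4% and 87.2%), and P2rx4, P2rx5 and P2ry2 lose most of theirs. Most of the share is also lost by Asic1 in the Th gate (61.5% to 17.9%) and P2rx2 in the Mrgpra3 gate (48.9% to 13%). The same holds for Asic2 in the Calca/Tac1 gate (40.7% to 14%).

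Asic1, the gene of the ASIC subunit that also gives the main acid current of brain neurons, was highest in the Th gate. Its means were 36.1 CPM in Blue and 67.6 CPM in Red, against 6.44 and 7.56 CPM in the other cells of these mice, a difference of 2.19 (SE 0.33, limma adjusted p = 0.00305), and 24 of 39 cells had a count (61.5%, exact 95% interval 44.6% to 76.6%). After thinning 17.9% of cells kept one. Of the 4 mice with 1 or 2 Th-gate cells, Control, Control1 and Control6 lay between 34.3 and 55.3 CPM and Control2 was at 0. With these mice included the call was lost, as it was with halved gate thresholds or no filter. In the comparison of gates Th cells were above Mrgprd, Mrgpra3, Sst/Nppb and Calca/Tac1 cells (limma adjusted p = 0.000835, 0.0024, 0.00164 and 0.0283). Th over Nefh was 0.38 (SE 0.91) and not called, with Control as the one Nefh mouse of that fit. With that Nefh mouse alone, Mrgprd minus Nefh was −3.09 and Sst/Nppb minus Nefh was −2.92.

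In 3 gates Asic1 was nearly absent. It had a count in 2 Mrgprd-gate cells, 1 of 47 Mrgpra3-gate cells and 1 of 46 Sst/Nppb-gate cells, at means of 0.756 ± 1.71, 0.285 ± 0.494 and 0.818 ± 1.83 CPM, against 14.4 ± 3.34, 12.9 ± 4.26 and 11.6 ± 3.25 CPM in the other cells. All 3 were called lower (limma adjusted p = 9.18e-05, 0.048 and 0.00872). The Mrgpra3 call was lost without Blue (−1.72, adjusted p = 0.169) or Red (−1.63, 0.193), and the Sst/Nppb call without Blue (−1.48, 0.0548) and within runs 2 to 4 (−1.56, 0.117). The Nefh gate was uneven, at 25 CPM in Control, 7.21 in Control2 and 0 in Control6, and the Calca/Tac1 gate ranged from 4.54 CPM in Control to 29.6 CPM in Control1; neither was called against the rest. Asic1 lies on chromosome 15 (99670368 to 99701130, plus strand).

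How often P2ry1 and Asic1 were detected in the same cell differed between gates. In the Th gate 23 of 24 cells with Asic1 had P2ry1 (95.8%, exact 95% interval 78.9% to 99.9%), as did 14 of the 15 cells without it. Among cells of no gate, 10 of 11 cells with Asic1 had P2ry1 (90.9%, interval 58.7% to 99.8%), against 6 of 17 cells without Asic1 (35.3%); the median depth of those cells with Asic1 was 23978 counts and of those without 11101 counts. P2ry1 was found in 7 of 10 Nefh-gate cells with Asic1 beside 12 of 16 without, in 2 of 10 Calca/Tac1-gate cells beside 4 of 76, and in 0 of the 2 such cells of the Mrgpra3 and Sst/Nppb gates. Cells of no gate had 51.8 CPM of Asic1 in Blue, 71.6 in Red and 5.45 in Control.

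The stretches before the annotated starts of P2ry1 and Asic1 are shown because both genes were called higher in the Th gate, with GC boxes (the motif GGGCGG, here on the other strand) in capitals; they were read from RefSeq on GRCm38.p6, plus strand, and lie at chr3:61002535-61002784 and chr15:99691974-99692223. The Asic1 stretch precedes a start inside the gene and overlaps no annotated exon of it.
P2ry1: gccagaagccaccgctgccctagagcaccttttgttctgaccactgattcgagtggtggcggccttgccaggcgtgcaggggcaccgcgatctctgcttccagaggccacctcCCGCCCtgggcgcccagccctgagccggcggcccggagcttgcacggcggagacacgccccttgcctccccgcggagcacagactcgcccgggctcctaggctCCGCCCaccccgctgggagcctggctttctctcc
Asic1: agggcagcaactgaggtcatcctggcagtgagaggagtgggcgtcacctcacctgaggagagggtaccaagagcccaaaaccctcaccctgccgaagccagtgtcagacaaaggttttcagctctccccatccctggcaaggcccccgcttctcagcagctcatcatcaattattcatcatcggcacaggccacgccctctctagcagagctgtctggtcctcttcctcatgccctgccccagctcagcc
Both strands were searched for the GC box GGGCGG, the box CCAAT, the box TATAAA and the core TGTGGT bound by RUNX factors, which occur in 32.7%, 33.8%, 12.4% and 14% of 32851 RefSeq promoter stretches of 250 bases. The P2ry1 stretch held 2 GC boxes, 137 and 34 bases before the RefSeq start, at a GC content of 70.8%, and the Asic1 stretch held none of the 4 motifs at 59.2%; the median over all stretches was 52.4%. No motif was shared by the pair. The table has such a stretch for 7 of the 10 genes.

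Asic2, the gene of an ASIC subunit that modifies the channels of the others, was found in all gates. In the Mrgprd gate Blue averaged 107.8 CPM, Red 121.5, Control 127.6, Control1 57.6, Control2 96.7 and Control6 90.9, while the other cells of these mice lay between 37.2 and 62.5 CPM with a median of 52.5 CPM. Control1 fell within the range of the other cells, and the gate was higher in 6 of 6 mice (0.86, SE 0.15, limma adjusted p = 0.000571). The difference was 1.06 within run 1 and 0.76 within runs 2 to 4 (limma adjusted p = 0.0485). The Calca/Tac1 gate lay lowest, at 41.8 ± 22.5 CPM against 75.5 ± 16.9 CPM (SD, n = 6), and was not called (−0.88, SE 0.31, limma adjusted p = 0.0901). Mrgprd over Calca/Tac1 was the one pair of gates called for Asic2 (1.32, limma adjusted p = 0.00617). The 4 other gates averaged 49.2 to 89.4 CPM and were not called against the rest. Asic2 lies on chromosome 11 (80880169 to 81968457, minus strand).

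Asic3, the gene of the ASIC subunit most closely tied to acid-evoked pain, split the gates most sharply among the acid channels. In the Calca/Tac1 gate Blue averaged 64.5 CPM, Red 117.6, Control 148, Control1 82.6, Control2 110.2 and Control6 21.7, while the other cells of these mice lay between 1.94 and 74.9 CPM with a median of 14.4 CPM. The ranges overlapped, and the gate was higher in 6 of 6 mice (2.02, SE 0.47, limma adjusted p = 0.0106). Within run 1 the difference was 3.27 and within runs 2 to 4 it was 1.40 (limma adjusted p = 0.155), and without the cells richest in glial markers it was 2.62 and not called (limma adjusted p = 0.0570). In the Nefh gate Asic3 stood at 204 CPM in Control, 433 in Control2 and 50.4 in Control6, against 17.1, 5.82 and 16.8 CPM in the other cells of these mice, higher in 3 of 3 mice without overlap (3.31, SE 0.51, limma adjusted p = 0.00021), and this call held without any single mouse. The mice of the Nefh gate were far apart, their range overlapped that of the Calca/Tac1 gate, and the difference between these gates was not called (1.28 in favour of Nefh, SE 0.86). The Nefh cells with the higher sum of glial markers averaged 224 CPM and those with the lower sum 208 CPM, and the Calca/Tac1 cells 82.4 and 102.9 CPM.

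Asic3 averaged 1.67 ± 3.32 CPM in the Mrgprd gate against 60.9 ± 40.4 CPM in the other cells (SD, n = 6), lower in 6 of 6 mice (−3.20, SE 0.28, limma adjusted p = 9.39e-07). The Mrgpra3 gate had no count in 47 cells, against 46.8 ± 22.2 CPM in the other cells (n = 3). That allows up to 6.38% of cells with a count and sets no limit on cells with a low level. The Sst/Nppb gate had 2.37 ± 4.2 CPM against 48.53 ± 29.98 CPM (n = 5). Both gates were called lower (limma adjusted p = 0.0324 and 0.00688). The Mrgpra3 call was lost without Red (−3.30, adjusted p = 0.0985) and the Sst/Nppb call within runs 2 to 4 (−2.90, adjusted p = 0.117). With no filter both were lost. Each of these gates and the Th gate lay below both the Calca/Tac1 and the Nefh gate, so 8 of the 15 pairs were called; 4 of these rest on Control as the one Nefh mouse, in run 2, and the Mrgpra3 and Th cells came from Blue and Red of run 1. The 12 cells just inside the Nefh threshold (500 to 1000 CPM) had a mean of 167 CPM of Asic3, and 26 cells just outside it (250 to 500 CPM) had a mean of 106.4 CPM with a median of 0.

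Asic3 occurred with and without the other ASIC genes. In the Nefh gate 19 of 21 cells with Asic3 had Asic2 (90.5%, exact 95% interval 69.6% to 98.8%) and 10 of 21 had Asic1 (47.6%, interval 25.7% to 70.2%). Of the 5 Nefh-gate cells without Asic3, 3 had Asic2 and 0 had Asic1. In the Calca/Tac1 gate 24 of 50 cells with Asic3 had Asic2 (48%, interval 33.7% to 62.6%) and 7 of 50 had Asic1 (14%, interval 5.82% to 26.7%). Of the 36 Calca/Tac1-gate cells without Asic3, 11 had Asic2 (30.6%) and 3 had Asic1 (8.33%). Depth differed between these cells, with medians of 84065 counts in the Nefh-gate cells and 20879 in the Calca/Tac1-gate cells with Asic3. Without Asic3 the medians were 8069 counts in the Nefh gate and 16226 in the Calca/Tac1 gate. The part of depth in the shares was not tested.

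Asic3 lies on chromosome 5 (24413392 to 24417835, plus strand). The 191 bases before its annotated start, chr5:24413201-24413391 on the plus strand of GRCm38.p6 from RefSeq, are shown because it was the acid channel gene called in most gates; capitals mark its one match among the 4 motifs, the RUNX core TGTGGT.
Asic3: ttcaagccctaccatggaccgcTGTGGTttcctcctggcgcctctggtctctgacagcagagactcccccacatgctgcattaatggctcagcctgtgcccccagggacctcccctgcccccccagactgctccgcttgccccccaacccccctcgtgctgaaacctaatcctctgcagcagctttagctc
GC content was 62.3% and none of the 3 other motifs was found. Such a match is a description of letters and not of binding.

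Genes whose levels were most like those of a receptor gene were searched by Pearson's r over 21 means of mouse and gate among 6797 genes that averaged 20 CPM or more, for receptor genes that averaged 10 CPM or more. The points share mice, gates and libraries, and the genes named are the highest values of that search. For P2rx3 these were Mcfd2 (r = 0.925), the diacylglycerol kinase gene Dgki (0.905) and the cation channel gene Trpc6 (0.875). For P2ry1 they were the kinesin gene Kif5c (0.913), Ppm1e (0.913) and Cd34 (0.905), and for Asic3 they were Fxyd7 (0.945), the protein kinase C gene Prkcb (0.926) and the transporter gene Abcg2 (0.913). Asic2 reached 0.821 with Uaca and P2rx4 0.879 with Sec11a.

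Other genes of ATP and acid signalling were followed in 4 lists. None of the 8 other P2X and P2Y receptor genes passed the filter of a mean of 2 CPM. Of 13 genes of ATP release, ATP breakdown and adenosine signalling, 10 were tested. In the Mrgprd gate 5 of the 10 were called higher and 0 lower (median difference 0.67, against −0.09 over all genes tested, of which 20.8% were called in either direction). The Calca/Tac1 and Nefh gates each had 0 higher and 3 lower, beside 10.3% and 6.28% of all genes called, with medians of −0.59 and −0.30 against −0.12 and −0.08 over all genes. The Sst/Nppb gate had 1 higher and 3 lower (12.9% of all genes called, median −0.53 against −0.30), and the Th gate 2 higher and 3 lower (18.8%, −0.21 against −0.03). The Mrgpra3 gate had 0 higher and 1 lower (2.04%, −0.02 against −0.14).

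The surface enzymes that turn ATP into adenosine showed the widest differences of that list. Acpp, which encodes a phosphatase that forms adenosine from AMP, averaged 897 CPM in the Mrgprd gate against 397 CPM in the other cells (1.21, SE 0.12, limma adjusted p = 3.2e-06). It averaged 26.9 CPM in the Calca/Tac1 gate against 709 CPM elsewhere (−5.08, SE 0.38) and 52.1 CPM in the Nefh gate against 659 CPM (−4.77, SE 0.54). In the Th gate Acpp stood at 559 CPM against 597 CPM (limma adjusted p = 0.56), and P2rx3 was lower there. Nt5e, the 5′-nucleotidase gene with the same reaction, was higher in the Mrgprd gate (121.8 against 60.1 CPM) and the Sst/Nppb gate (192 against 67.6 CPM). It was lower in the Th (4.30 against 97.3 CPM), Calca/Tac1 (1.48 against 101.2 CPM) and Nefh gates (8.17 against 81.1 CPM), and the 5 calls had limma adjusted p values of 1.9e-06 to 0.0023. Entpd3, which removes phosphates from ATP and ADP, was higher in the Mrgprd gate (189 against 93.5 CPM) and lower in the Sst/Nppb (22.7 against 147 CPM), Calca/Tac1 (64.3 against 142 CPM) and Nefh gates (55.7 against 122.05 CPM).

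Among 5 other ASIC genes and channel partners, 2 were tested, too few to describe the list. In the Sst/Nppb gate 1 was called higher (2.53% of all genes). In the Th, Calca/Tac1 and Nefh gates 1 was called lower (10.4%, 6.25% and 3.25% of all genes). In the Mrgprd and Mrgpra3 gates 0 were called (20.8% and 2.04% of all genes in either direction). Stom, which encodes stomatin, a membrane protein that binds ASIC channels, averaged 84.5 CPM in the Sst/Nppb gate against 9.08 CPM in the other cells (2.69, SE 0.39, limma adjusted p = 0.00072) and was lower in the Th, Calca/Tac1 and Nefh gates. Of 7 other acid sensors, 3 were tested. All 3 were called lower in the Mrgprd gate (13.1% of all genes, median −2.56) and 2 were called higher in the Calca/Tac1 gate (4.02% of all genes, median 2.42). In the Th gate 1 was called higher (8.4% of all genes), 1 was lower in the Mrgpra3 gate (1.46%), and 0 were called in the Sst/Nppb and Nefh gates.

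Trpv1, the gene of the heat, capsaicin and acid receptor, averaged 403 CPM in the Calca/Tac1 gate against 79.7 CPM elsewhere (2.42, SE 0.26, limma adjusted p = 1.9e-05) and 15.7 CPM in the Mrgprd gate against 206 CPM (−3.30, SE 0.23, limma adjusted p = 1.1e-07). Kcnk3, the gene of an acid-inhibited potassium channel, averaged 107.7 CPM in the Calca/Tac1 gate against 5.71 CPM (3.06, SE 0.52, limma adjusted p = 0.0011) and 1.92 CPM in the Mrgprd gate against 39.6 CPM. In the Calca/Tac1 gate Trpv1 and Kcnk3 were thus called in the same direction as Asic3, and in the Nefh gate, where Asic3 was also higher, Trpv1 stood at 72.8 CPM against 108.1 CPM and was not called (−0.64, SE 0.31, limma adjusted p = 0.29).

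**Figure D5:**
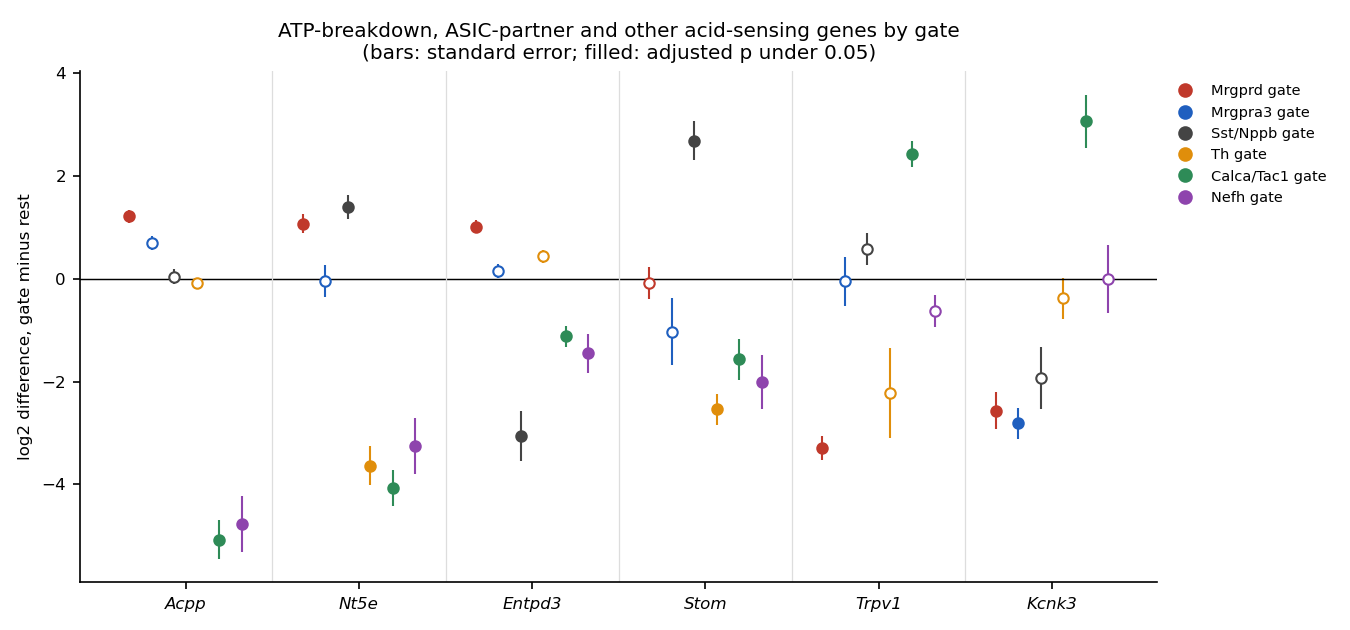
Difference in log2(mean CPM + 5) between the cells of a gate and the other cells of the same mice for named genes of ATP breakdown (Acpp, Nt5e, Entpd3), the ASIC partner Stom and other acid sensors (Trpv1, Kcnk3); bars are standard errors and filled points have a limma adjusted p under 0.05. Acpp and Nt5e are lower in the Calca/Tac1 and Nefh gates, and Trpv1 and Kcnk3 are higher in the Calca/Tac1 gate and lower in the Mrgprd gate.

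A kept cell had counts of a median of 3 of the 10 receptor genes, from 0 in 14 cells to 8. The median was 3 in the Mrgprd, Sst/Nppb and Calca/Tac1 gates, 4 in the Mrgpra3 and Th gates and 6 in the Nefh gate, the order of which also follows the depth of the Nefh gate. The 10 cells just inside the Mrgprd threshold (200 to 400 CPM) averaged 560 CPM of P2rx3, and the single cell just outside it (100 to 200 CPM) had 553 CPM.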

How the data were processed

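RNA of single tdTomato-positive ganglion cells was measured in 4 sequencing runs, and the authors deposited 1 table of genes by cells per run. The deposited signal values are counts multiplied by a factor that differs between cells and that no source used here states. STAR 2.7.3a and the mm10 build are named, per the submitters' processing notes. Division of each cell's values by its most frequent low value, taken as 1 count, gave recovered counts, with a median of 96.4% of low values within 0.1 of a whole number, and 246 of 394 columns met the stricter criterion for recovered whole reads. Another 6 labelled cells were not analysed here.

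Rn45s (a mean of 7.42% of the signal) and 26 entries that hold dates (0.154%) were left out, cells with at least 500 genes were kept, and values were scaled to CPM. None of the 23 cells below that limit had more than 377 counts or any count of a receptor gene. Depth in kept cells was 909 to 324747 recovered counts, 30332 at the median, and the medians of the 6 mice lay between 24702 and 42432. Shares carry exact Clopper-Pearson 95% intervals and a share of 0 the limit that 3 counts set; both cover counting error only, and cells of a mouse are not replicates.

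Means per mouse and arm (at least 3 cells) were compared on log2(CPM + 5) with limma 3.58.1, with mouse as a block, a trended prior, a filter at a mean of 2 CPM and Benjamini-Hochberg adjustment. This scale understates the change of low genes. Both arms come from the same animals, which is where the pairing of samples comes from. The pairs of gates were fitted together on cells of 1 gate. edgeR 4.0.16 on recovered counts was an alternative, beside other pseudocounts, filters, thresholds, runs and mice left out. Genes named outside the receptor genes are up to 3 of each pathway list with the smallest p and the 3 genes most like each receptor gene. The receptor genes, lists and gates were chosen with earlier results of these data known. One gene of the list of other acid sensors is not reported here. Gene positions are from GENCODE vM21 and promoter sequences from RefSeq.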

Additional observations from a re-analysis of the deposited data

Results flagged for a closer look

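In 8 of 24 groups of 4 to 6 mice, the mean of 1 mouse stood far from the others by Dixon's criterion. Chance meets it in about 1 in 20 groups only where values are normally distributed, which these groups are not. Where the other mice are all at 0, any value above 0 is flagged, so the number flagged shows no excess. All 8 were groups in which most mice were at or near 0, and each value rests on 1 to 4 cells with a count. In the Mrgprd gate Control stood apart for Asic3 with 8.29 CPM (4 of 18 cells), Asic1 with 4.24 CPM (1 of 18 cells) and P2rx5 with 2.17 CPM (1 of 18 cells). In the Calca/Tac1 gate Control stood apart for P2ry1 with 24.4 CPM (2 of 4 cells) and P2ry14 with 8.47 CPM (1 of 4 cells), and Blue for P2rx2 with 4.09 CPM (2 of 33 cells). In the Sst/Nppb gate Red stood apart for Asic1 with 4.09 CPM (1 of 15 cells) and Control1 for Asic3 with 9.69 CPM (1 of 4 cells).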

How the results depend on the processing

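Of the 27 calls of receptor genes against the other cells, recomputed 515 times in all under single alternatives, 432 recomputed values stayed called, 83 lost the call and 0 turned. Some of these alternatives left out only mice that add no cells to the test, so that only the filter changed. Numbers of called receptor genes that moved by more than 1.5 times were the following. A filter at 10 CPM gave 4 in the Mrgprd gate (7 in the report), 2 in the Mrgpra3 (4), 2 in the Sst/Nppb (5), 3 in the Th gate (5) and 22 over the pairs (40), since fewer of them were tested. No filter gave 0 in the Mrgpra3, 0 in the Th and 0 in the Nefh gate (2), and a pseudocount of 1 gave 1 in the Mrgpra3 gate. edgeR on recovered counts gave 7 in the Mrgpra3 gate, 5 in the Nefh gate and 70 over the pairs. Mean log values gave 2 in the Mrgpra3 gate, and halved thresholds, or 1 cell per arm (chosen after seeing the data), gave 2 in the Th gate.

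Leaving out cells at 500 CPM or more of glial markers removed most cells and gave 0 in the Mrgprd, Sst/Nppb and Calca/Tac1 gates and 0 over the pairs. Leaving out only the 25% richest, chosen after seeing the data, gave 0 in the Mrgpra3 and 1 in the Sst/Nppb gate. Runs 2 to 4 alone gave 1 in the Sst/Nppb gate, 2 in the Calca/Tac1 gate (4) and 3 over the pairs. The cause of these shifts was not tested. With 1 mouse left out the numbers were 7 to 8 in the Mrgprd, 0 to 5 in the Mrgpra3, 2 to 5 in the Sst/Nppb, 4 to 5 in the Th, 3 to 5 in the Calca/Tac1 and 2 to 2 in the Nefh gate, and 11 (without Blue) to 46 over the pairs. The Th range covers only mice that add no cells to its test, so it does not show dependence on single mice. Without the mouse as a replicate block they were 7, 4, 5, 5, 4 and 2 in the 6 gates and 45 over the pairs. The Th gate could not be fitted without Blue or Red, nor could the glial limit of 500 CPM in the Mrgpra3, Th and Nefh gates, runs 2 to 4 in the Mrgpra3 and Th gates, run 1 in the Nefh gate, or doubled thresholds, a rest of gated cells and the 25% limit in the Nefh gate. Of 640 recomputed levels, 621 moved by less than 1 SD between mice.

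Among calls of higher levels, those that failed under 1 alternative only were P2rx3 in the Mrgprd gate (kept in 20 of 21, 1.67 to 3.72), Asic2 in the Mrgprd gate (20 of 21, 0.70 to 1.77), P2ry1 in the Th gate (16 of 17, 3.72 to 5.70) and Asic3 in the Nefh gate (15 of 16, 2.29 to 4.29). For the Th gate these include leaving out each Control mouse and keeping run 1 alone, which use the same Blue and Red cells. For the Nefh gate, runs 2 to 4 alone likewise hold the mice already tested. P2rx2 in the Sst/Nppb gate was kept in 12 of 20 and P2ry2 in the Mrgpra3 gate in 10 of 18. With 2 mice, the p-values of the Th gate rest on the spread shared over genes, and depth leaves low genes such as P2rx5 and P2ry14 undecided in the shallow gates.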
